A study of Mus musculus with 2 samples.

Results

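The Mir135 family of the mouse consists of 3 microRNA (miRNA) genes, Mir135b, Mir135a-1 and Mir135a-2, and its levels were followed here in the forebrain of mouse embryos at embryonic day 16.5. The members were selected by identifier, as the rows whose Ensembl gene IDs carry these symbols in GENCODE M21, and they are 3 of the 1973 miRNA genes in the deposited tables. The family was chosen with its levels in these libraries already known, so the levels and the differences between libraries are given as descriptions and no test was made on them. The data are 2 microRNA sequencing libraries, replicates 2 and 1 of a single group. Each was prepared from the total RNA of pooled forebrain tissue of healthy male and female B6NCrl embryos, and 41 embryos are labelled for replicate 2. No treatment, mutation or second tissue is labelled, so no comparison between conditions can be made. Both pools carry the same donor record, and the spread between them is that of these 2 libraries only.

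A miRNA gene is transcribed into a precursor that folds back into a hairpin. The hairpin is cut into short mature RNAs from its 5′ and 3′ arms, and a mature RNA guides silencing of messenger RNAs mainly through its seed, bases 2 to 8. The miR-135 family is conserved among vertebrates and is known from brain. In mouse, miR-135a acts in serotonergic neurons on the serotonin transporter gene Slc6a4 and the receptor gene Htr1a, the gene Mir135a-2 acts on Lmx1b and Wnt signalling in the midbrain, and miR-135 promotes axon growth by repressing Klf4. In human pluripotent cells, miR-135b promotes a neuroectodermal fate.

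The mature sequences come first, because they determine which reads can be assigned to which gene. Sequences are from RefSeq on GRCm38.p6, all 3 members were matched by symbol, and capitals mark the seed. Both Mir135a genes list the same mature 5′ arm:

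mmu-miR-135a-5p: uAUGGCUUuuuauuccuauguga

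mmu-miR-135a-1-3p, from Mir135a-1: uAUAGGGAuuggagccguggcg

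mmu-miR-135a-2-3p, from Mir135a-2: uGUAGGGAuggaagccaugaa

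mmu-miR-135b-3p, from Mir135b: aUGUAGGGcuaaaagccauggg

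The mature 5′ arm of Mir135b, mmu-miR-135b-5p, is named only. Among the mature sequences used here, the 5′ seed of miR-135a was listed for the 2 Mir135a genes and for no gene outside the family. Each of the 3 mature 3′ arms had a seed of its own, which no other gene among these sequences shares. The 3′ arms of Mir135a-1 and Mir135a-2 had a longest common run of 7 bases, and those of Mir135b and Mir135a-2 one of 8 bases. The hairpin of Mir135b is shown next, because it holds the family's 5′ seed sequence (capitals, bases 17 to 23) in a stretch that separates this gene from the Mir135a genes, and the hairpin of Mir135a-2 (capitals at bases 24 to 30) is shown for comparison:

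Mir135b: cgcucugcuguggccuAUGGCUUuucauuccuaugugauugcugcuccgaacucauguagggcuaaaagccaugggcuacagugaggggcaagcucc

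Mir135a-2: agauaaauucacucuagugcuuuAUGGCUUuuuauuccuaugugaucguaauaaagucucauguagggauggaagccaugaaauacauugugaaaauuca

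Bases 16 to 38 of the Mir135b hairpin matched miR-135a-5p at 22 of 23 bases, and the difference was U11C, with positions counted from 1 at the 5′ end of miR-135a-5p and the base of Mir135b given last. The hairpins of Mir135a-1 and Mir135a-2 shared an unbroken run of 24 bases that contains the whole of miR-135a-5p. Over the full hairpins the 3 members were 62.9% to 67.0% identical in pairwise alignment, so the likeness of the Mir135a genes to each other was no higher than 67.0%, against 66.7% between Mir135b and Mir135a-1. The predicted folding energy, from RNAfold at its default settings, was -48.7 kcal/mol for the 97 bases of Mir135b, -43.5 kcal/mol for the 90 bases of Mir135a-1 and -34.5 kcal/mol for the 100 bases of Mir135a-2. GC content followed the same order, at 53.6%, 46.7% and 33.0%, and in all 3 predicted folds the 7 bases of the seed sequence were paired.

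These sequences bear on what a count can hold. Reads with more than 1 matching locus have a row of their own in the tables, with 43.4% of all reads in replicate 2 and 40.5% in replicate 1, and a gene's count is therefore taken to hold reads placed at 1 locus. Of the 22-base windows of the Mir135b hairpin, 76 of 76 occurred in no other of the 2202 miRNA gene sequences of GENCODE M21 on either strand. For Mir135a-1, 66 of 69 windows occurred in no other miRNA gene, and for Mir135a-2, 76 of 79. The 3 remaining windows of each began within miR-135a-5p, lay in the common run of 24 bases and were shared between these 2 genes and with no other gene. Windows were compared among miRNA genes and not across the genome. Of 1894 miRNA genes with a row and a sequence, 47.7% shared a window of this length with another miRNA gene. A read of exactly the listed miR-135a-5p sequence matches both Mir135a genes, and a read of their 3′ arms matches one. The gene counts do not show which arm a read came from, and how many reads of the separate row were miR-135a-5p was not measured. The counts of Mir135a-1 and Mir135a-2 are uncertain for that reason, and their 2 levels cannot stand for the level of miR-135a-5p.

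**Figure D1:**
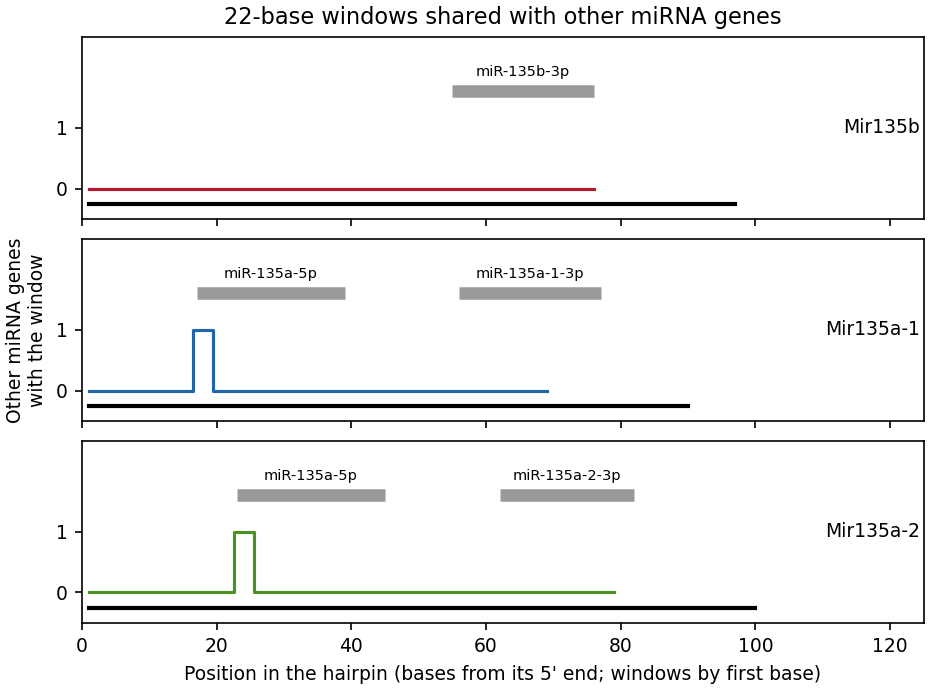
Number of other miRNA genes that hold each 22-base window of the 3 hairpins, by the window's first base, with the hairpin as a black bar and the listed mature arms as grey bars. The 3 shared windows of Mir135a-1 and of Mir135a-2 begin within miR-135a-5p, and Mir135b has none.

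The members lie on 3 chromosomes of mm10, the assembly that GRCm38 names. Mir135b (ENSMUSG00000065435.1) is at chr1:132198088-132198184 on the plus strand, in an intron of 2 of 8 transcripts of Lemd1 and of the 1 transcript of AC124108.1. Mir135a-1 (ENSMUSG00000065407.1) is at chr9:106154124-106154213 on the plus strand. It falls in an intron of 1 of 3 transcripts of the non-coding gene D030055H07Rik and, on the other strand, in an exon of 2 of 5 transcripts of Glyctk that is annotated there as untranslated. Mir135a-2 (ENSMUSG00000065524.1) is at chr10:92072086-92072185 on the minus strand, in an intron of 2 of 14 transcripts of Rmst, a long non-coding RNA known from neurogenesis. None of the 3 had a read on the strand opposite to the gene in either library, which allows up to 3 reads, or 0.721 CPM in replicate 2 and 0.593 CPM in replicate 1. CPM stands for counts per 1000000 counts on the gene strand, whose total was 4158686 counts in replicate 2 and 5060112 in replicate 1. No molecular identifiers are described, so intervals and limits hold for counting error alone.

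The family's counts in the embryonic forebrain came almost entirely from Mir135b. All 3 members reached 100 counts in each library, and together they held 0.620% of the gene-strand counts in replicate 2 (exact Clopper-Pearson 95% interval 0.613% to 0.628%) and 0.763% in replicate 1 (0.755% to 0.770%), a mean of 0.691% ± 0.101 (SD, n = 2). Mir135b took 97.5% of the family's counts in replicate 2 and 96.6% in replicate 1. Mir135a-1 took 1.31% of them in replicate 2 and 2.22% in replicate 1, and Mir135a-2 took 1.20% and 1.14%. These shares are of uniquely placed reads and leave out reads that match both Mir135a genes.

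Mir135b had 25135 counts in replicate 2 and 37299 in replicate 1, or 6044 and 7371 CPM (6708 ± 938 CPM, SD, n = 2). This placed it 32nd of the 703 miRNA genes with a count in either library. The genes next above it in mean CPM were Mir181d at 6807 ± 476, Mir181a-1 at 6954 ± 38.4 and Mir30d at 6992 ± 705 CPM, and those next below were Mir151 at 5858 ± 122, Mir744 at 5745 ± 270 and Mir125a at 5105 ± 737 CPM. The range of Mir135b over its 2 libraries contained the mean levels of the 3 genes above it, and did not contain those of the 3 below it.

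Mir135a-1 had 339 counts in replicate 2 and 856 in replicate 1, or 81.5 and 169 CPM (125.3 ± 62.0 CPM). Its rank by mean CPM was 183, between Mir505 at 134.8 ± 10.05 and Mir503 at 125.2 ± 17.2 CPM. Mir667 at 135.5 ± 51.2 and Mir20b at 137.4 ± 25.6 CPM stood above these, and Mir223 at 123.9 ± 38.6 and Mir670 at 123.8 ± 4.98 CPM below. All of these 6 genes had means within the range of Mir135a-1 over its 2 libraries.

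Mir135a-2 had 309 counts in replicate 2 and 441 in replicate 1, or 74.3 and 87.2 CPM (80.7 ± 9.09 CPM), at rank 205. Mir200a at 81.3 ± 14.3, Mir122 at 81.4 ± 23.3 and Mir7j at 81.9 ± 17.8 CPM stood next above it, and Mir24-2 at 80.6 ± 0.0540, Mir302d at 79.5 ± 36.3 and Mir483 at 78.0 ± 23.4 CPM next below. In the order of the 3 members, Mir135b was the highest in both libraries. Mir135a-1 was above Mir135a-2 in each library, though in replicate 2 the counting interval of their ratio included equality. The ranges of Mir135a-1 and Mir135a-2 over the libraries overlapped, so the order of their means is not separated by that spread.

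**Figure D2:**
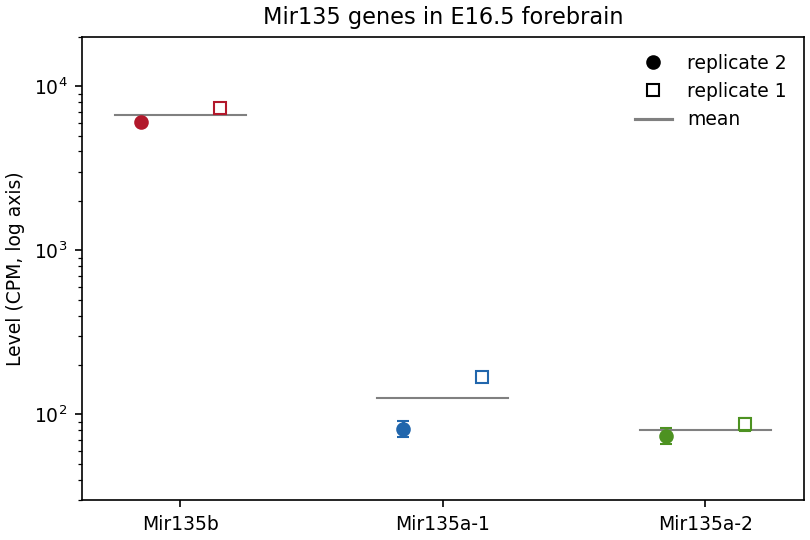
Level of each Mir135 gene in CPM on a log axis, with replicate 2 as filled circles, replicate 1 as open squares, 95% exact counting intervals as bars and the mean as a grey line. Mir135b lies at 6044 and 7371 CPM, far above Mir135a-1 at 81.5 and 169 CPM and Mir135a-2 at 74.3 and 87.2 CPM.

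**Figure D3:**
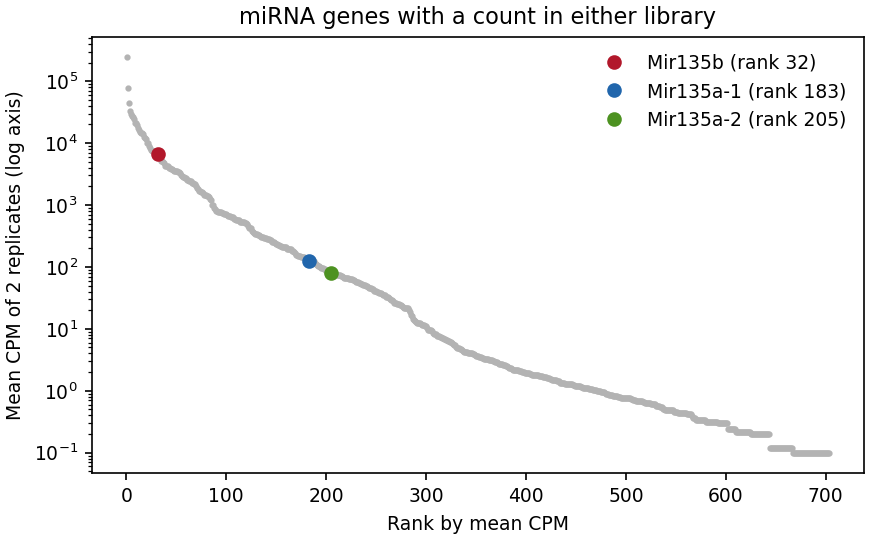
Mean CPM on a log axis against rank for the 703 miRNA genes with a count in either library. Mir135b stands at rank 32, Mir135a-1 at rank 183 and Mir135a-2 at rank 205.

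The ratios of members within a library do not depend on how the libraries are scaled. Mir135b had 74.1 times the counts of Mir135a-1 in replicate 2 (exact 95% counting interval 66.6 to 82.8) and 43.6 times in replicate 1 (40.7 to 46.7). These intervals do not overlap. Mir135b had 81.3 times the counts of Mir135a-2 in replicate 2 (72.7 to 91.3) and 84.6 times in replicate 1 (77.0 to 93.1), and these intervals overlap over most of their length. Mir135a-1 had 1.10 times the counts of Mir135a-2 in replicate 2 (0.938 to 1.28), an interval that includes equality, and 1.94 times in replicate 1 (1.73 to 2.18), which does not. On the log2 scale, the ratio of Mir135a-1 to Mir135a-2 was lower by 0.82 in replicate 2 than in replicate 1, while that of Mir135b to Mir135a-2 differed by -0.06. The ratio of Mir135b to Mir135a-1 was higher by 0.77 in replicate 2. Both ratios that include Mir135a-1 thus differed more between the libraries than that of Mir135b to Mir135a-2.

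Between the libraries, Mir135a-1 was lower in replicate 2 and the other members differed little. After library totals were scaled with TMM, the trimmed mean of M values, the log2 ratio of replicate 2 over replicate 1 was -0.93 for Mir135a-1 (exact 95% counting interval -1.12 to -0.75), a fold of 0.524. It was -0.17 for Mir135b (-0.19 to -0.14), a fold of 0.891, and -0.11 for Mir135a-2 (-0.33 to 0.10), a fold of 0.927. With unscaled totals the median ratio of all genes shifted by -0.12 and the members stood at -1.05, -0.29 and -0.23. Of the 3 members, 1 was past 1.5-fold, against 41 of the 273 genes that reached 100 counts in each library (15.0%). It was among the 25 genes (9.16%) that were lower by this fold in replicate 2, and no member was among the 16 genes (5.86%) that were higher. The median ratio of the members was -0.17, against 0.00 for the 273 genes. Only 3 of the 273 genes had a ratio larger in size than Mir135a-1, and 1 had a lower ratio. In contrast, 168 genes had a larger one than Mir135b and 203 a larger one than Mir135a-2. A difference between 2 libraries of 1 group has no replicate check.

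**Figure D4:**
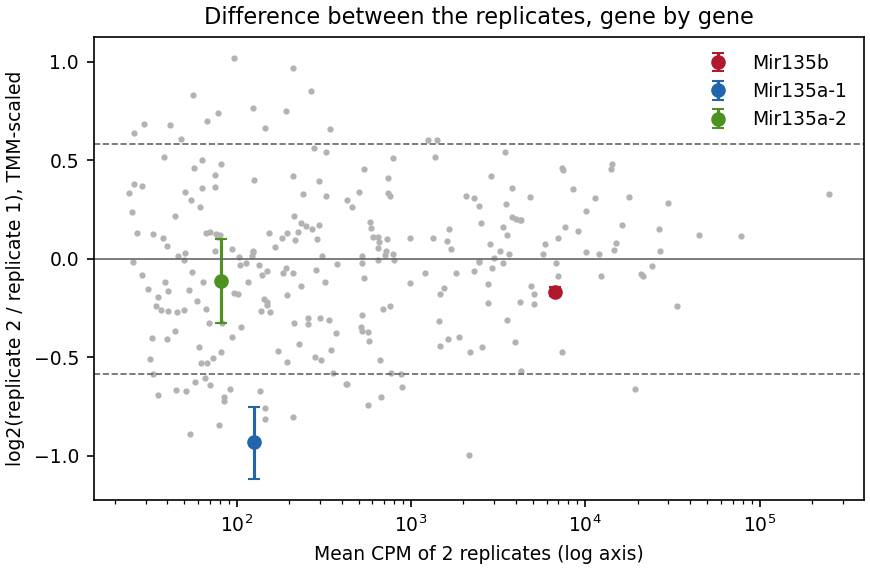
Log2 ratio of replicate 2 over replicate 1, TMM-scaled, against mean CPM on a log axis for the 273 genes that reached 100 counts in each library, with dashed lines at 1.5-fold and bars for the 95% counting intervals of the Mir135 genes. Mir135a-1 lies at -0.93, near the lower edge of the genes, while Mir135b at -0.17 and Mir135a-2 at -0.11 lie within the 1.5-fold lines.

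The genes with the ratio nearest to that of Mir135a-1, by absolute difference over these 2 libraries, were Mir302b at -0.89, Mir7b at -0.998 and Mir302d at -0.84. Mir302b and Mir302d belong to a cluster of pluripotent cells, and Mir7b is enriched in neurons of the hypothalamus. Nearest to Mir135b were Mir1981 at -0.16, Mir33 at -0.17 and Mir125a, a homologue of worm lin-4, at -0.18. Nearest to Mir135a-2 were Mir673, Mir539 and Mir328, each at -0.12. With 2 libraries, such likeness rests on 1 ratio per gene.

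Marker lists of other cell types and regions differed between the libraries in both directions. The list of hindbrain and posterior body genes, which lie in Hox clusters, held 0.0484% of counts in replicate 2, against 0.0757% in replicate 1. Of its 5 genes, 4 reached 5 counts in each library, and Mir196a-1 had 0 counts in replicate 2 and 1 in replicate 1. The 3 genes with at least 100 counts had a median log2 ratio of -0.58, with Mir10a at -0.58 and Mir10b at -0.43. The liver list held 0.0143% in replicate 2 and 0.0176% in replicate 1, and its 2 genes, both detected, went opposite ways, with Mir122 at a log2 ratio of -0.47 and Mir192 at 0.11. The erythroid list held 0.0241% in replicate 2 and 0.0306% in replicate 1, with 3 of 3 genes detected. Its members were mixed too, with Mir451a at -0.53 and Mir144 at 0.83. The epithelial list held 0.389% in replicate 2 and 0.322% in replicate 1 with 7 of 7 genes detected. Its median log2 ratio was 0.48, with Mir429 at 0.60, Mir203 at 0.11 and Mir205 alone the other way at -0.45. The myeloid list held 0.0222% in replicate 2 and 0.0167% in replicate 1, with 2 of 2 genes detected. The endothelial gene Mir126a stood at 1.90% in replicate 2 and 1.66% in replicate 1. The choroid plexus and ciliated list differed little in sum, at 0.507% and 0.493%, with all 4 genes detected. Its leading genes went opposite ways, with Mir449a at a log2 ratio of 0.42 and Mir204 at -0.31. The muscle list had 3 of 4 genes at 0 in both libraries and held 0.00252% and 0.00188%. The genes at 0 are numbered copies of multi-copy genes, and these counts leave out reads that match several copies. A count of 0 there does not show absence. The part of these cells in the ratio of Mir135a-1 was not tested, and in bulk tissue fewer cells of a type and less RNA per cell cannot be told apart.

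The labelled tissue was set beside 20 neural miRNA genes, chosen with earlier results of these data known, of which 19 had a row. Of these, 18 reached 5 counts in each library, against 438 of all 1973 genes, and none was at 0 in both. The epithelial and liver lists passed the same limit in full, so this count does not set the neural list apart from them. They held 3.56% of counts in replicate 2, against 3.84% in replicate 1. Mir135b stood above 18 of the 19 genes in mean CPM and below Mir137, a regulator of neuronal maturation, which reached 12348 ± 1260 CPM. This order is one of uniquely placed reads. It leaves out reads that match several copies of a gene. The list holds numbered copies of Mir9, Mir124a, Mir128, Mir125b, Mir138 and Mir218. The order therefore does not rank miR-135b against the mature RNAs of these copies. Mir135a-1 and Mir135a-2 each stood above 7 of the 19 genes and below 12. Between the libraries, 1 of the 14 neural genes with at least 100 counts was lower in replicate 2 by 1.5-fold, Mir138-2 at -0.63, against 9.16% of all 273 genes, and 0 were higher, against 5.86%. Mir138-1, the other Mir138 gene, fell just short of this fold at a log2 ratio of -0.58. The median log2 ratio of the 14 genes was -0.02.

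For 2 of the members, another miRNA gene of the tables lay within 65.0 kb. Mir135a-1 lies 24.6 kb from Mirlet7g of the let-7 family, on the same strand but in another gene, Wdr82. Mir135a-1 was at 125.3 ± 62.0 CPM with a log2 ratio of -0.93 between the libraries, against 78156 ± 149 CPM and 0.12 for Mirlet7g. Mir135a-2 lies 65.0 kb from Mir1251, which is also within Rmst on the same strand. Mir135a-2 was at 80.7 ± 9.09 CPM with a log2 ratio of -0.11, against 148.7 ± 25.6 CPM and -0.23 for Mir1251. The nearest miRNA gene to Mir135b was 699 kb away and was at 0 in each library.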

How the data were processed

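Each table holds raw read counts per miRNA gene, deposited by the authors, in 3 columns: without regard to strand, and for each strand. The file descriptions deposited with the tables name the mm10 assembly and the GENCODE M4 annotation. For aligner, counter and trimming, nothing is stated in the sources used here. The third column of each table, which has the larger total of the strands, was used as the gene-strand count. Rows of unassigned reads, with 43.4% (replicate 2) and 40.5% (replicate 1) mapping to several loci, 15.2% and 19.1% unmapped, and 2.82% and 2.50% outside the genes, were kept out of totals. Symbols were found in GENCODE M21 for 1894 of 1973 genes.

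CPM, exact Clopper-Pearson intervals and log2 ratios after adding 0.5 to each count were computed in Python 3.11.15 with scipy 1.17.1, and TMM scaling in edgeR 4.0.16 under R 4.3.3. Size factors of DESeq2 1.42.0 were an alternative. Hairpins were folded with RNAfold 2.7.2. The calculation of the ratios and of the count past 1.5-fold was run on simulated counts with planted changes and counting error only. That run does not bear on the spread between libraries. The genes named are the members, the 3 genes next above and below each in mean CPM, and the 3 closest in ratio. Those closest in ratio were taken among genes that reach 100 counts in each library. The leading genes of marker lists are named too, except for the myeloid and muscle lists. Mir138-1, Mir138-2, Mir196a-1, Mir205 and the genes nearest by position were named outside this rule after their values were seen. The members and lists were chosen with earlier results of these data known.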

Additional observations from a re-analysis of the deposited data

How the results depend on the processing

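No paired analysis was possible because both libraries belong to 1 group. Apart from leaving out a library, 43 values were recomputed under another setting. Of these, 33 stayed within 1 SD, the counting interval or 1.5 times the value reported, and 10 moved. Of the log2 ratios, the only values here that could change sign, 0 did. For the members, counting without regard to strand could change only totals and scaling, as none had opposite-strand reads. With all reads as denominator, unassigned reads included, Mir135b was at 2517, Mir135a-1 at 46.9 and Mir135a-2 at 30.3 CPM, and the family at 0.259%. Without the most abundant gene in the total, Mir135b was at 8923, Mir135a-1 at 165.7 and Mir135a-2 at 107.4 CPM, and the family at 0.920%. Both shifts follow from the change of denominator. In the second, Mir135a-1 counted as within 1 SD only because its SD was 62.0 CPM. With unscaled totals the log2 ratio of Mir135b was -0.29, with the sign kept, in place of -0.17. Where the 2 counts sum to 10 or more, 117 of 466 genes were past 1.5-fold, and of those with 1 count in either library, 288 of 703, against 41 of 273; these settings add genes with few counts. Leaving out a library gave 6044 to 7371 CPM for Mir135b, 81.5 to 169 CPM for Mir135a-1, 74.3 to 87.2 CPM for Mir135a-2 and 0.620% to 0.763% for the family. Without replicate 1, Mir135a-1 was thus over 1.5 times below its mean of 125.3 CPM. The counting interval of the log2 ratio of Mir135a-2 included 0 with TMM (-0.33 to 0.10) and not with unscaled totals (-0.45 to -0.02), so the depth and the scaling both limit that ratio.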

Other observations

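Mir135a-1 and Mir135a-2 belong to a wider class of genes that list a mature sequence in common with another gene. RefSeq lists 97 such genes, of which 87 had a row, and 50 of these (57.5%) had at least 5 counts in both libraries, with a median of 77.8 CPM. Of 829 genes with a row and no mature sequence in common with another gene, 342 (41.3%) had at least 5 counts in both libraries, with a median of 69.7 CPM. Mir135a-1 at 125.3 CPM and Mir135a-2 at 80.7 CPM both lay above the median of these 50 genes of the first class. The range of Mir135a-2 over its libraries, 74.3 to 87.2 CPM, contained that median. These counts hold uniquely placed reads, and no test of the difference between the classes was made.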
